A study of Mus musculus with 70 samples.

Results

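The cerebellum of 12-week-old mice lacking the short isoform of Capicua (Cic-S-KO, 7 libraries) was compared with the cerebellum of wild-type mice (WT, 8 libraries) across all expressed genes. The members are the cerebellum libraries whose titles carry these genotypes, 15 of the 70 libraries of a study that also covers lung, cortex and animals without the long isoform (Cic-L-KO). The WT mice are littermates pooled over both knockout lines, so no WT library can be assigned to the Cic-S-KO line alone. The allele, the strain and the sex of the mice are not named in the sources used here. The titles number the libraries of a group as replicates without naming animals, so the p-values measure the spread between these libraries. RNA came from whole, flash-frozen cerebellum, and reads were counted per gene.

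Capicua is a DNA-binding repressor that sits at short AT-rich octamers and holds down genes induced by receptor tyrosine kinase and ERK signalling. Its short and long isoforms start from separate promoters and share the DNA-binding domain, and both bind ataxin-1, the protein that carries the polyglutamine expansion of a spinocerebellar ataxia. The cerebellar cortex is built from a very large population of glutamatergic granule neurons, the large inhibitory Purkinje cells that form its output, inhibitory interneurons of the molecular and granule layers, and glia that include the Bergmann cells beside the Purkinje layer.

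Total counts ran from 20440799 to 30464699 per library, and 0 of 49 within-group library pairs were identical. Of 16643 genes tested, 1370 differed between Cic-S-KO and WT (8.23%; edgeR quasi-likelihood test with Benjamini-Hochberg adjustment, adjusted p under 0.05). Higher expression was found for 723 genes (4.34%) and lower expression for 647 (3.89%). Most differences were small: those 1370 genes had a median log2 fold change of 0.26 in size, and 176 of them moved by at least 0.5 and 43 by at least 1 (27 higher, 16 lower). Protein-coding genes made up 1277 of the 1370. In 206 of the genes tested (1.24%) the 2 groups of libraries did not overlap at all, and 200 of these 206 were among the 1370. Y-linked RNA was present in 4 WT and 3 Cic-S-KO libraries and absent from 4 and 4. The 2 classes gave different counts, as described further on, and the count was 883 without Cic-S-KO replicate 6 and 907 without Cic-S-KO replicate 7.

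**Figure D1:**
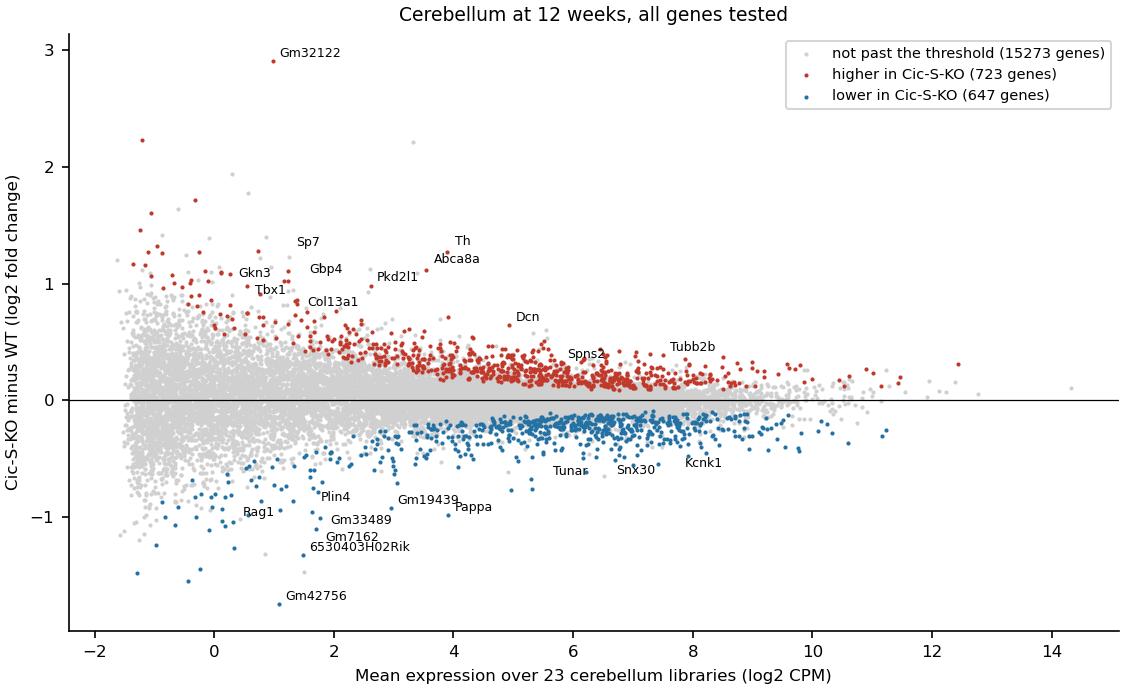
Each point is 1 of the 16643 genes tested, with mean expression on the x axis (log2 CPM over the 23 cerebellum libraries, Cic-L-KO included) and the Cic-S-KO minus WT log2 fold change on the y axis. The 723 genes that were higher (red) and the 647 that were lower (blue) lie mostly close to 0, and Gm32122, Th and Abca8a stand above the rest of the labelled genes.

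Cic itself was measured as a sum over its isoforms. The gene (ENSMUSG00000005442.13) lies on the plus strand of chromosome 7, from 25267704 to 25294159 in GRCm38. Its RNA ran from 172 to 212 CPM (counts scaled to library size, TMM-normalised) in WT, with a median of 190.1, and from 183 to 227 in Cic-S-KO, with a median of 215. The log2 fold change of 0.15 (SE 0.049) had an adjusted p of 0.05004 (edgeR), which was not under the threshold, and 5 of 7 Cic-S-KO libraries lay above every WT library. Counts per gene do not separate the isoforms, so they check neither the loss of the short isoform nor the labels. In cortex the log2 fold change was 0.63, and the cerebellum minus cortex difference was -0.48 (adjusted p = 3.23e-05, edgeR interaction). Atxn1, which encodes the ataxin-1 partner, had 49.4 ± 6.13 CPM in WT (SD, n = 8) and 42.4 ± 3.80 in Cic-S-KO (n = 7), with an adjusted p of 0.0617 (edgeR). Of 13 tested genes of Capicua, its partners and its corepressors, 0 passed (edgeR), 3 had an unadjusted p under 0.05, and DESeq2 called 1 higher and 1 lower. Over all 16643 genes tested, 2020 were higher and 2018 lower at an unadjusted p under 0.05 (edgeR). By DESeq2 946 were higher and 904 lower. These counts over all genes are the background for the same counts of later lists.

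Among the genes best known as Capicua targets the share called higher by edgeR was near that of all genes. Of 22 tested targets 1 was higher (4.55%, beside 4.34% of all genes) and 0 lower (edgeR, adjusted p under 0.05). At an unadjusted p under 0.05, 6 were higher and 3 lower, beside 2020 and 2018 of all 16643 genes tested. By DESeq2 3 were higher and 2 lower, beside 946 and 904. By these 2 measures the share higher was above that of all genes. The targets had a median log2 fold change of 0.064 against 0.0053 over all genes tested. The 1 gene was Shc3, an adaptor of receptor tyrosine kinases, which ran from 19.2 to 26.3 CPM in WT and from 26.3 to 35.1 in Cic-S-KO. Its log2 fold change was 0.44 (SE 0.082, adjusted p = 0.00186, edgeR), and 6 of 7 Cic-S-KO libraries lay above every WT library. Etv4, an ETS factor, was at 18.8 CPM in WT and 21.3 in Cic-S-KO (adjusted p = 0.066, edgeR). Etv5, another ETS factor, was at 92.0 and 100.5 CPM (adjusted p = 0.68, edgeR). Dusp6, a phosphatase that switches off ERK, was at 27.0 and 29.7 CPM (adjusted p = 0.53, edgeR). Of 24 tested members of the RAS to ERK cascade, Nras was higher (0.21, adjusted p = 0.00648) and the ribosomal S6 kinase gene Rps6ka1 lower (-0.33, adjusted p = 0.00512, edgeR). Each is 4.17% of that list, near the shares of all genes tested (4.34% higher, 3.89% lower).

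The octamers that Capicua binds were searched as TGAATGAA and TGAATGGA on both strands of RefSeq promoter windows (GRCm38.p6), each reaching from 250 bases before to 50 after a gene's start. Windows were found for 11609 of the 16643 genes tested, and 1.95% of these genes held an octamer in at least 1 window. The share was 1.86% of 539 genes that were higher and 1.09% of 459 that were lower. Over all 32851 windows of the table the share was 2.47%. In the target list 2 of 13 genes with a window held one, namely Maff and Spred3. Among the genes picked by the naming rules given below that were looked up, only Gjc3 held one. Apart from the targets, genes named only to describe their list were not looked up. These 3 stretches are shown because they carry the only matches among the genes so looked up, with the octamer in capitals, 5′ to 3′ on the gene's own strand.
Gjc3 (chr5:137963122-137963151, minus strand): atctcaaagccTCCATTCActtagagaata
Maff (chr15:79347507-79347536, plus strand): ctgggtttttaTGAATGAAaggaatcctgt
Spred3 (chr7:29168639-29168668, minus strand): cttgatttttgTGAATGAAatgctccttgt
Gjc3 encodes an oligodendrocyte gap junction protein and was higher in Cic-S-KO, from 117 ± 9.79 to 136 ± 9.94 CPM (log2 fold change 0.22, adjusted p = 0.0114, edgeR). The other 2 genes were not among those that differed. Spred3 inhibits RAS signalling and stood at 26.3 CPM in WT and 25.2 in Cic-S-KO. Maff encodes a small leucine zipper factor and stood at 1.39 and 1.28 CPM.

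The gene that rose most among those with at least 1 log2 CPM was Th, which encodes tyrosine hydroxylase, the rate-limiting enzyme of catecholamine synthesis and a gene also transcribed in some Purkinje cells. Th (ENSMUSG00000000214.11, minus strand of chromosome 7, 142892752 to 142931128) ran from 7.89 to 12.6 CPM in WT, with a median of 9.98. In Cic-S-KO it ran from 18.6 to 28.2, with a median of 24.7. The lowest Cic-S-KO library was above the highest WT library. The log2 fold change was 1.27 (SE 0.106, adjusted p = 4.18e-08, edgeR), with 1.32 in libraries with Y-linked RNA and 1.22 in those without. Th was the only one of 11 tested catecholamine genes to pass, among them Dbh, the next enzyme in noradrenaline synthesis, at 1.36 CPM in WT and 3.18 in Cic-S-KO (adjusted p = 0.45, edgeR). Against Cic-L-KO, where Th stood at 11.1 ± 1.82 CPM (n = 8), the log2 fold change was 1.12 (adjusted p = 3.90e-08, edgeR).

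Abca8a, which encodes an ABC transporter of the ABCA5-like group, rose next. It lies on the minus strand of chromosome 11, from 110025634 to 110095978. Its RNA ran from 5.73 to 8.98 CPM in WT and from 13.2 to 24.3 in Cic-S-KO, and the groups did not overlap. The log2 fold change was 1.12 (SE 0.128, adjusted p = 8.82e-06, edgeR). The highest value belonged to Cic-S-KO replicate 6, whose summed myelin markers were also the highest of the group, at 14505 CPM against 9185 to 11365 in the other libraries. The other 6 Cic-S-KO libraries lay from 13.2 to 16.3 CPM, all above every WT library. Of 5 tested ABCA5-like transporters, Abca8a alone passed.

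**Figure D2:**
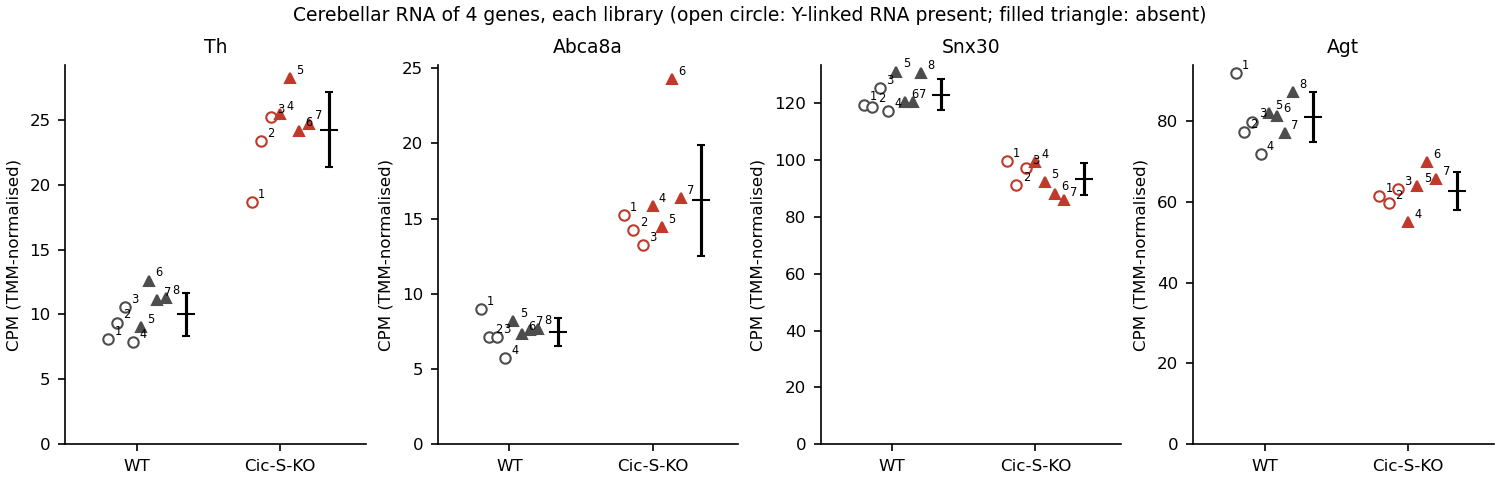
Each panel shows the RNA of 1 gene in CPM on the y axis for WT and Cic-S-KO libraries (x axis), with the title's replicate number beside each point and the mean ± SD as a bar. Open circles have Y-linked RNA and filled triangles do not. Th and Abca8a lie higher and Snx30 and Agt lower in all 7 Cic-S-KO libraries than in any WT library.

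Pkd2l1 is a calcium-permeable TRP channel gene. It ran from 3.83 to 4.73 CPM in WT and from 7.16 to 10.4 in Cic-S-KO (log2 fold change 0.98 with an SE of 0.123, adjusted p = 2.57e-05, edgeR), without overlap between the groups. Gm32122, a noncoding transcript on chromosome 8, had the largest fold change of all genes tested that passed the threshold. It ran from 0.219 to 0.980 CPM in WT and from 2.92 to 6.36 in Cic-S-KO (log2 fold change 2.91 with an SE of 0.300, adjusted p = 2.14e-06, edgeR). Sp7, a transcription factor known from bone, rose from 1.35 ± 0.327 to 2.90 ± 0.945 CPM (log2 fold change 1.11). Other genes of low expression rose too: Gbp4, an interferon-induced GTPase, by a log2 fold change of 1.02, Gkn3 by 1.02, the T-box factor Tbx1 by 0.86 and the membrane collagen Col13a1 by 0.85. Each of these 4 had 5 or 6 Cic-S-KO libraries above every WT library.

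Among genes with at least 1 log2 CPM, those that fell most were mostly not annotated as protein-coding. Gm42756, an antisense transcript, fell from 2.82 ± 0.957 to 0.839 ± 0.326 CPM (log2 fold change -1.74), and because the counting's use of strand is not given in the sources used here, its reads cannot be told from those of the gene it overlaps. 6530403H02Rik had a log2 fold change of -1.32, Gm7162, a processed pseudogene whose reads may be shared with its parent gene, -1.10, Gm33489 -1.01 and Gm19439 -0.92. Coding genes among them were Pappa (log2 fold change -0.98), which encodes a protease that cleaves insulin-like growth factor binding proteins, the lipid droplet gene Plin4 (-0.95) and Rag1 (-0.93). Pappa ran from 7.56 to 21.6 CPM in WT and from 4.76 to 9.26 in Cic-S-KO, so these groups overlapped.

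Snx30 and Tunar had p-values among the smallest with small fold changes. Snx30, a sorting nexin gene on chromosome 4, ran from 117 to 131 CPM in WT and from 86.0 to 99.6 in Cic-S-KO (log2 fold change -0.40 with an SE of 0.042, adjusted p = 2.14e-06, edgeR). Tunar, a gene of neural differentiation, ran from 57.8 to 67.4 and from 41.4 to 48.5 CPM (log2 fold change -0.42, adjusted p = 2.14e-06, edgeR). Kcnk1, a background potassium channel gene, had a log2 fold change of -0.36 (adjusted p = 4.55e-05, edgeR). Tubb2b, a beta-tubulin gene of neurons, rose by 0.39, and Spns2, an exporter of sphingosine-1-phosphate, by 0.32, each with an adjusted p of 4.55e-05. In these 5 genes all 7 Cic-S-KO libraries were on one side of every WT library.

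Many markers of granule neurons fell. Of 22 tested markers, 12 fell (54.55%, beside 3.89% of all genes tested) and 0 rose (edgeR). At an unadjusted p under 0.05 the counts were 18 and 0, and by DESeq2 14 and 0. Every marker had a negative log2 fold change, and the median was -0.29. Granule neurons make up most of the cells in this tissue and use glutamate. Gabra6, the GABA-A receptor subunit that marks them, ran from 599 to 846 CPM in WT and from 375 to 668 in Cic-S-KO, and 6 of 7 Cic-S-KO libraries lay below every WT library (log2 fold change -0.42 with an SE of 0.098, adjusted p = 0.0103, edgeR). Kcnd2, an A-type potassium channel, ran from 318 to 410 CPM in WT and from 203 to 299 in Cic-S-KO, without overlap (log2 fold change -0.45, adjusted p = 0.00172, edgeR). Gabrd, a tonic GABA receptor subunit, fell by 0.42 (adjusted p = 0.00467), and Chn2, a Rac-regulating chimaerin, by 0.42 (adjusted p = 0.00994, edgeR). Other markers that fell were Neurod1 (-0.40), a transcription factor, the synaptic organizer genes Cbln1 (-0.28) and Cbln3 (-0.37), the glutamate transporter Slc17a7 (-0.27) and the NMDA receptor subunit Grin2c (-0.37). Zic1 (-0.16) and Pax6 (-0.21), both transcription factors, did not pass (adjusted p = 0.21 and adjusted p = 0.077, edgeR). In bulk RNA fewer cells of a type and less RNA per cell cannot be told apart.

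The summed RNA of the 22 granule markers ran from 9258 to 12074 CPM in WT and from 6631 to 9756 in Cic-S-KO. The 3 Cic-S-KO libraries with Y-linked RNA lay at 9565 to 9756, inside the WT range. The 4 without it lay at 6631 to 8659, below every WT library. The split by Y-linked RNA is not part of the labels and was made after the data were seen. The median log2 fold change of the granule markers was -0.15 with Y-linked RNA and -0.40 without, with 0 and 17 markers past the threshold. Over all genes tested, 0.102% passed in libraries with Y-linked RNA and 13.9% in those without (edgeR). The same shares stand beside the class counts of later lists. The difference of the 2 effects passed for 0 of the 22 granule markers (edgeR).

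Part of the markers of Purkinje cells and of inhibitory interneurons rose. Of 23 tested Purkinje markers 9 rose (39.13%, beside 4.34% of all genes tested), 0 fell and 14 did not pass (edgeR). At an unadjusted p under 0.05 the counts were 16 higher and 1 lower, and by DESeq2 9 and 0. The median was 0.16, and 22 of the 23 had a positive log2 fold change. Itpr1, the receptor through which these cells release stored calcium, ran from 3773 to 5544 CPM in WT and from 5388 to 7098 in Cic-S-KO. Its log2 fold change was 0.31 (SE 0.074, adjusted p = 0.0106, edgeR), and 6 of 7 Cic-S-KO libraries lay above every WT library. Pvalb, a calcium buffer shared with interneurons, rose by 0.23 (adjusted p = 0.00829), and Lhx5, a LIM homeobox factor, by 0.25 (adjusted p = 0.0180, edgeR). Rora, a nuclear receptor needed by Purkinje cells, rose by 0.20 and Aldoc, a zonal marker, by 0.12. Calb1, the calbindin gene most often used to mark these cells, had 0.16 and did not pass (adjusted p = 0.098, edgeR). The summed level ran from 12926 to 17712 CPM in WT and from 15878 to 19900 in Cic-S-KO, and the 12926 of WT replicate 1 stood apart from the other WT libraries, which began at 15463. The Purkinje median was 0.23 in libraries with Y-linked RNA, where 0 markers passed, and 0.10 without, where 1 rose and 1 fell. The count of 9 was 3 without Cic-S-KO replicate 7, 4 without replicate 5 and 5 without replicate 2.

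Interneuron markers rose most often, 10 of 17 tested (58.82%, beside 4.34% of all genes tested) and 0 lower (edgeR). At an unadjusted p under 0.05 the counts were 11 and 0, and by DESeq2 10 and 0. The median was 0.27. The summed level was 2377 to 2685 CPM in WT and 2784 to 3400 in Cic-S-KO, so all 7 Cic-S-KO libraries lay above every WT library. Gad1, which makes the synthetic enzyme of GABA, ran from 567 to 759 CPM in WT and from 755 to 953 in Cic-S-KO (log2 fold change 0.27, adjusted p = 0.00408, edgeR). The vesicular GABA transporter Slc32a1 rose by 0.24 and Kit, a receptor kinase of molecular layer interneurons, by 0.37. The interneuron median was 0.13 in libraries with Y-linked RNA, where 0 markers passed, and 0.39 without, where 8 rose, and the count of 10 was 6 without Cic-S-KO replicate 7. Npy, a neuropeptide, rose from 8.41 ± 1.42 to 11.5 ± 2.11 CPM (log2 fold change 0.46, adjusted p = 0.0398, edgeR).

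Marker RNA of brainstem, cerebellar nuclei and choroid plexus varied between libraries. The brainstem and nuclei markers held 14 tested genes, of which 0 passed (edgeR; 0 at an unadjusted p under 0.05, 0 by DESeq2). The list's summed level, which includes 6 markers below the count filter, was 543 CPM in WT replicate 1 and 587 in Cic-S-KO replicate 6. It was 199 to 336 in the other libraries. The median log2 fold change of the 14 tested genes was 0.33 over all libraries, -0.79 with Y-linked RNA and 1.79 without. Each of these 2 libraries also had the lowest granule and the lowest Purkinje sum of its group. Without both, 9 granule markers fell, 12 Purkinje markers rose and 7 interneuron markers rose (edgeR). Choroid plexus RNA varied the most: Ttr, its main secreted protein, ran from 11.5 to 2790 CPM in WT and from 104 to 3856 in Cic-S-KO, and 0 of 15 tested markers passed (edgeR; 2 at an unadjusted p under 0.05, 0 by DESeq2).

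**Figure D3:**
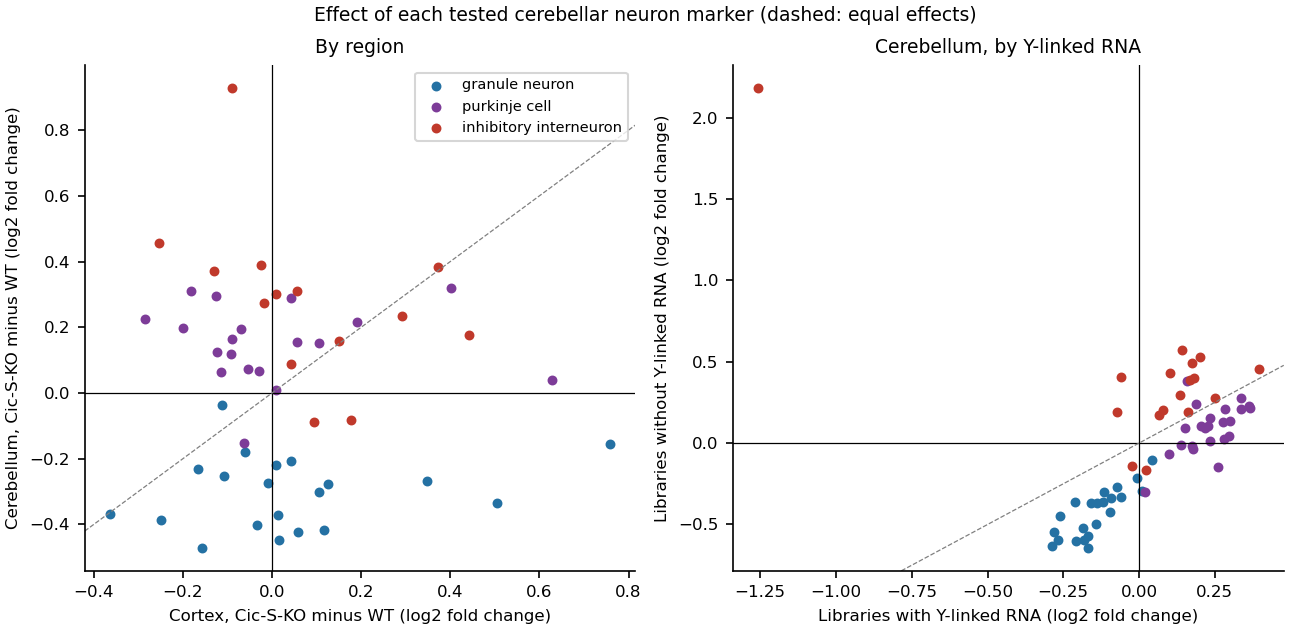
Each point is a tested marker of granule neurons (blue), Purkinje cells (purple) or inhibitory interneurons (red). On the left the cerebellum effect (y axis) is plotted against the cortex effect (x axis), and on the right the effect in libraries without Y-linked RNA (y axis) against that in libraries with it (x axis), all as Cic-S-KO minus WT log2 fold changes. Granule markers lie below 0 in the cerebellum whatever their cortex value, and the isolated red point on the right is Sst.

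Glial and vascular lists gave smaller shares of calls than the granule, Purkinje and interneuron lists. Over all genes tested, 4.34% were higher and 3.89% lower. Of 21 tested astrocyte and Bergmann glia markers 5 rose (23.81%) and 1 fell (4.76%). Agt, the angiotensinogen gene, ran from 71.8 to 92.0 CPM in WT and from 55.1 to 70.0 in Cic-S-KO, without overlap (log2 fold change -0.37 with an SE of 0.057, adjusted p = 0.000297, edgeR). Hopx, a homeodomain-like gene of Bergmann glia, moved the other way, from 74.4 to 95.5 CPM in WT and from 96.0 to 120.5 in Cic-S-KO (0.37, adjusted p = 0.000645, edgeR). S100b rose by 0.28 and Sox9 by 0.34. Of 30 myelin and oligodendrocyte markers 7 rose (23.33%) and 1 fell (3.33%). Their median was 0.015 in libraries with Y-linked RNA, where 0 passed, and 0.29 without, where 9 rose. The 7 were 3 without Cic-S-KO replicate 6, whose summed myelin level stood apart, 3 without WT replicate 5, and 4 without WT replicate 4 or 7. Gsn, the gelsolin gene, rose by 0.44 (adjusted p = 0.00225, edgeR) and Apod, a lipid carrier, by 0.36. Hapln2, a link protein at nodes of Ranvier, fell by 0.52 (adjusted p = 0.0147, edgeR), and it ran from 29.8 to 43.9 CPM in WT and from 18.3 to 36.5 in Cic-S-KO. The precursor list had a median of -0.058 in libraries with Y-linked RNA (0 passed) and 0.37 without (8 higher). Of its 15 markers 3 rose (20%), Nkx2-2 (0.45), Enpp6 (0.34) and Itpr2 (0.20). The list's summed level lay above every WT library in all 7 Cic-S-KO libraries.

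Of 20 tested microglial markers 0 passed (edgeR), with a median of 0.19 (-0.046 with Y-linked RNA, 0.36 and 10 higher without), 8 higher at an unadjusted p under 0.05 and 1 by DESeq2. The MHC and interferon list gave 4 higher (22.22%, beside 4.34% of all genes tested) and 0 lower of 18 (edgeR). At an unadjusted p under 0.05 the counts were 10 and 0, and by DESeq2 5 and 0. The list's median was 0.029 in libraries with Y-linked RNA (0 passed) and 0.53 without (12 higher). Among the 4 were the class I gene H2-D1 (0.22, adjusted p = 0.00106) and B2m, its light chain (0.25, adjusted p = 0.0116, edgeR). H2-D1 ran from 145 to 161 CPM in WT and from 163 to 189 in Cic-S-KO, without overlap. Reads of class I genes can be shared between near-identical copies, so the split among them is uncertain. Of 11 meningeal fibroblast markers 3 rose (27.27%): Dcn, the decorin gene, by 0.65, Lum, the lumican gene, by 0.61, and Ogn, the osteoglycin gene, by 0.37. The median of that list was -0.13 in libraries with Y-linked RNA (0 passed) and 0.62 without (10 higher). Dcn ran from 22.4 to 29.3 CPM in WT and from 31.4 to 45.8 in Cic-S-KO (adjusted p = 8.82e-06, edgeR). Of 16 endothelial and mural markers 3 rose (18.75%): the smooth muscle genes Acta2 (0.58) and Myh11 (0.65), and Abcb1a, the blood-brain barrier efflux pump (0.34). Their list's median was -0.091 in libraries with Y-linked RNA (0 passed) and 0.47 without (11 higher), and the difference of the 2 effects passed for 4 of the 16, the endothelial genes Pecam1, Cdh5 and Flt1 and Abcb1a, of the 13 genes that passed it in all. Of 6 blood genes, the anion exchanger Slc4a1 fell, from 1.82 ± 0.371 to 0.910 ± 0.224 CPM, while the other 5 did not pass.

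Receptor and channel genes moved in both directions. Of 39 tested glutamate and GABA receptor genes 10 rose (25.64%) and 4 fell (10.26%), beside 4.34% and 3.89% of all genes tested. Grik3, a kainate receptor subunit, ran from 97.3 to 122 CPM in WT and from 126 to 174 in Cic-S-KO (0.38 with an SE of 0.064, adjusted p = 0.000953, edgeR), without overlap. Grin2b rose by 0.44 and Gria1 by 0.31. Among those that fell, Gabra6, Gabrd and Grin2c are granule markers as well. Of 39 potassium channel genes 2 rose (5.13%, near the share of all genes) and 6 fell (15.38%), with Kcnk1 and Kcnj12 (-0.48) the leading genes that fell. Genes mutated in ataxias split 4 higher (11.76%) and 4 lower (11.76%) of 34. The T-type calcium channel Cacna1g rose by 0.33 (adjusted p = 0.00367, edgeR), and Itpr1 and Rora rose as above. Fgf14, mutated in a spinocerebellar ataxia, ran from 67.6 to 101 CPM in WT and from 55.5 to 72.7 in Cic-S-KO (-0.45, adjusted p = 0.00305, edgeR), and the calcium channel subunit Cacnb4 fell by 0.31.

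Clock genes gave 5 higher (35.71%) and 2 lower (14.29%) of 14, beside 4.34% and 3.89% of all genes tested. The 5 were 1 without WT replicate 4, 2 without WT replicate 3, 7 or 8 or Cic-S-KO replicate 7, and 3 without Cic-S-KO replicate 4, 5 or 6. Clock, which with Arntl drives the circadian loop, ran from 168 to 215 CPM in WT and from 138 to 181 in Cic-S-KO (-0.30, adjusted p = 0.00139, edgeR), and Per3, one of its repressors, rose by 0.34. The time of day of tissue collection is not given in the sources used here. Of 11 glucocorticoid-responsive genes 2 fell (18.18%), Cdkn1a, a cell cycle inhibitor (-0.76, adjusted p = 0.0165, edgeR), and Plin4. Of 28 collagens 4 rose (14.29%) and 2 fell (7.14%). Of 76 ribosomal protein genes 2 rose (2.63%, edgeR), with 29 higher at an unadjusted p under 0.05. Of 60 oxidative phosphorylation genes 1 fell (1.67%), and of 13 mitochondrial genome genes 1 rose (7.69%). Within 10 Mb of Cic on either side, 14 of 306 tested genes differed (4.58%), beside 8.23% of all genes.

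**Figure D4:**
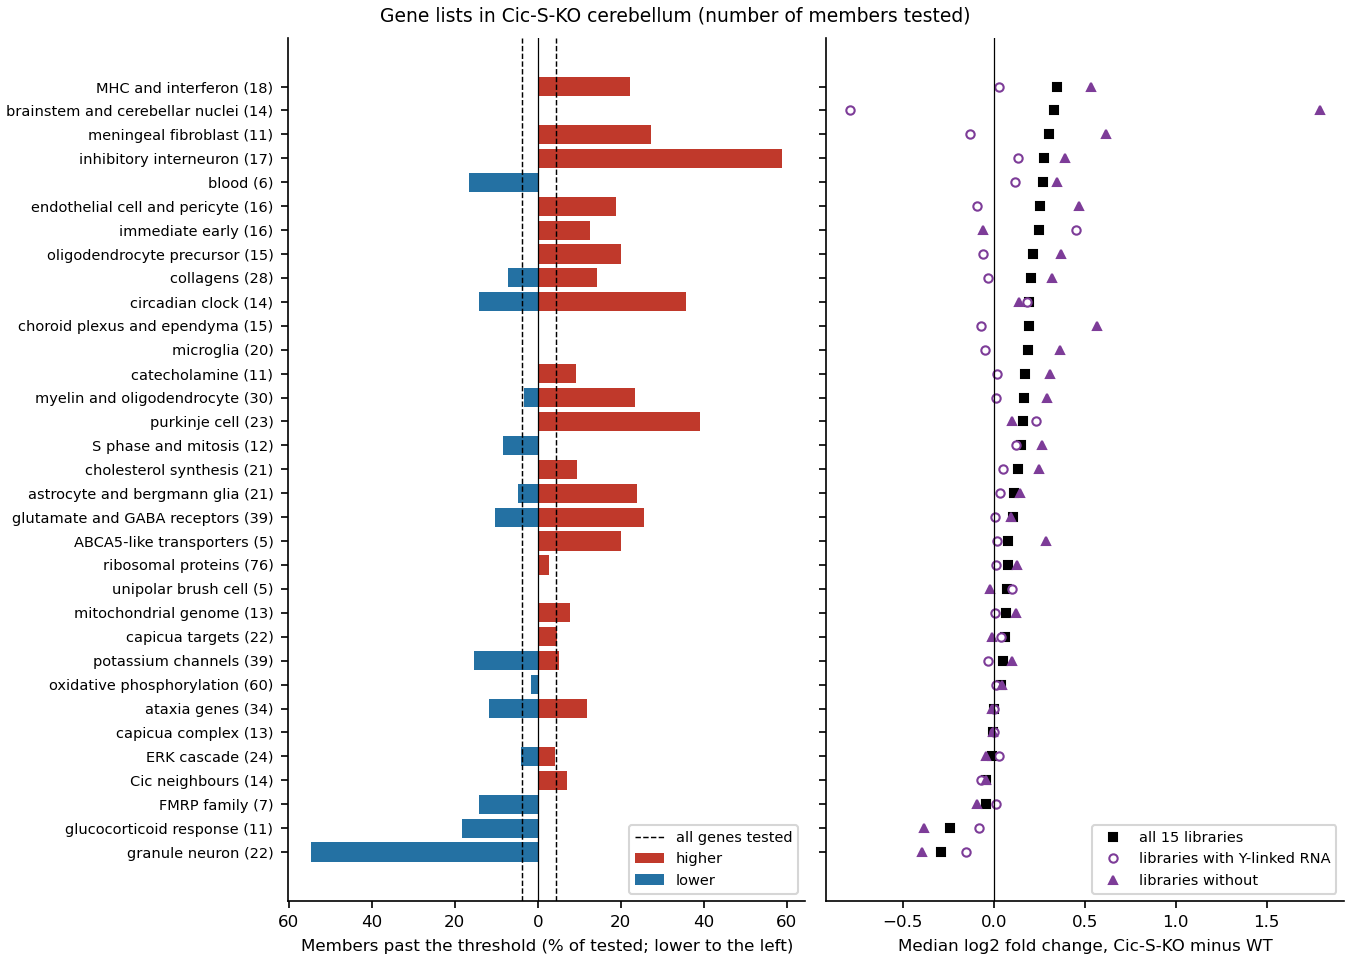
On the left, the share of each list's tested members past the threshold, higher to the right and lower to the left (x axis, percent), with dashed lines at the shares of all genes tested. On the right, the list's median log2 fold change over all 15 libraries (squares), in the libraries with Y-linked RNA (circles) and in those without (triangles). Interneuron and granule lists have the largest shares, and many glial and vascular lists have a median near 0 in libraries with Y-linked RNA.

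The libraries with and without Y-linked RNA gave unequal counts of calls. In 7 libraries with it, 17 genes differed (0.102%), and in the 8 without it 2314 differed (13.9%, 1167 higher or 7.01%, 1147 lower or 6.89%; edgeR, adjusted p under 0.05). Of the 2314 genes, 1852 had the same sign in the libraries with Y-linked RNA (80.0%, against 59.6% of all genes tested). Their median absolute log2 fold change was 0.32 in the libraries without and 0.095 in those with it. Over all genes tested, the log2 fold changes of the 2 classes had a Pearson correlation of 0.062. The test of the difference of the 2 effects called 13 genes (0.0781%), with 1837 at an unadjusted p under 0.05. Dcn rose by 0.90 without and 0.32 with Y-linked RNA (adjusted p for the difference 0.0174, edgeR), and Abcb1a by 0.61 and -0.059 (adjusted p 0.0365, edgeR). For Th, Agt, Hopx and Itpr1 the effects of the 2 classes did not pass that test. In each genotype the libraries numbered up to 4 in the library names carried Y-linked RNA and those numbered from 5 did not, so the Y class and that numbering cannot be told apart.

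The Cic-S-KO effect differed between cerebellum and cortex at 812 of 18032 genes tested over 46 libraries (4.5%), with 450 more positive (2.5%) and 362 more negative (2.01%) in the cerebellum. In cortex alone 1108 of 16974 genes differed (6.53%, 480 higher or 2.83%, 628 lower or 3.7%), and no library is shared with the cerebellum test. Both regions carry the same library numbers in each genotype, and the labels do not say whether the regions share animals. The main fit treated the libraries as independent. With library numbers as a block within genotype, the count of 812 was 851. Of the 1370 cerebellum genes, 139 also differed in cortex in the same direction (10.1% of the cerebellum calls and 12.5% of the cortex calls), and 27 differed in the opposite direction. Shared genes included Gm32122 (3.96 in cortex), Abca8a (0.91), Eml1, a microtubule-binding protein (0.55), and Pak1, a Rac effector kinase (-0.26). Th had a log2 fold change of 0.53 in cortex (adjusted p = 0.198) and a difference between the regions of 0.74 (adjusted p = 0.101, edgeR).

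Single genes show these differences. Slc24a2, a sodium calcium exchanger, ran from 465 to 564 CPM in WT cerebellum and from 549 to 668 in Cic-S-KO, and its effects were 0.25 here and -0.26 in cortex (difference 0.52, adjusted p = 0.000194, edgeR). Abr, a regulator of small GTPases, rose by 0.23 here and had -0.03 in cortex (difference 0.26, adjusted p = 0.000828, edgeR). Sh3glb2, an endophilin-like gene, fell by 0.13 here against a cortex effect of 0.14 (difference -0.27, adjusted p = 0.00022, edgeR). Of 22 granule markers in the joint test of the regions, 4 had a more negative effect in the cerebellum and 0 a more positive one. Of 17 interneuron markers 5 had a more positive and 0 a more negative effect, and of 23 Purkinje markers 4 and 2. Over all genes in that test 2.5% were more positive and 2.01% more negative. Grik3 and Grin2b also had a more positive effect in the cerebellum (0.51 and 0.62, adjusted p = 0.000865 and adjusted p = 0.00107, edgeR).

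Set directly against the cerebellum of Cic-L-KO mice, Cic-S-KO differed at 2069 genes (12.4%), with 1008 higher (6.06%) and 1061 lower (6.38%). Rasal1, a RAS GTPase activator, stood at 4.45 ± 0.649 CPM in Cic-L-KO and at 14.9 ± 1.82 in Cic-S-KO (log2 fold change 1.74, adjusted p = 5.87e-12, edgeR), with WT between them at 11.1 ± 1.92. Npy stood at 11.5 ± 2.11 and 2.90 ± 0.780 CPM (1.99, adjusted p = 4.33e-10, edgeR), with 8.41 ± 1.42 in WT. Ttc9 (-0.52, adjusted p = 1.62e-12), Cdkn2c, a CDK inhibitor gene (-1.56, adjusted p = 2.01e-11), and Gpr153 (0.67, adjusted p = 2.34e-09, edgeR) also lay on opposite sides of WT in the 2 knockouts. These 5 genes were chosen by the smallest p of this comparison, a choice that favours opposite sides. Shc3, Abca8a and Gabra6 moved the same way in both (Cic-L-KO minus WT 0.57, 0.61 and -0.38), while Pappa moved the opposite way (0.82). Granule markers gave 2 lower and 0 higher in Cic-S-KO against Cic-L-KO, and Purkinje markers 5 higher and 0 lower. Interneuron markers gave 1 higher and 2 lower, with a median of -0.048, and Gad1 stood at 835 ± 56.7 CPM in Cic-L-KO, beside 836 ± 80.8 in Cic-S-KO.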

How the data were processed

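Total RNA was isolated with a miRNeasy kit and made into polyA-selected libraries, per the labels' protocols. The files the authors deposited hold raw gene counts for 50789 Ensembl identifiers. STAR 2.7 and GRCm38.p6 are named in the submitters' processing notes, and the counting program and its use of strand are not given in the sources used here. Names and positions came from GENCODE M21 (GRCm38), which matched 50725 identifiers, and genes of chromosome 1 were not analysed here. Groups came from the labels, and each of the 70 columns matched 1 sample.

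Genes passing filterByExpr were tested with edgeR 4.0.16 (R 4.3.3; TMM, robust quasi-likelihood fit of 23 cerebellum libraries over 3 genotypes, Benjamini-Hochberg adjusted p under 0.05). Standard errors were derived from the F statistic. The difference of the region effects was tested in 46 brain libraries. CPM values are TMM-normalised. The tests were tried first on simulated counts. DESeq2 1.42.0 was an alternative.

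Y-linked RNA means over 1 CPM of Ddx3y. Named genes were the 8 largest changes in each direction with a mean of at least 1 log2 CPM, the 10 smallest p, up to 4 per list, and 5 each for the interaction, both regions and Cic-L-KO. Other listed genes are named to describe their list. The members and lists were chosen with earlier results of these data known. The results of some genes are not reported here.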

Additional observations from a re-analysis of the deposited data

Results flagged for a closer look

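In groups of 7 or 8 libraries, a library was singled out where its gap to the nearest other library was a large part of the group's range by Dixon's 95% criterion, which chance meets in about 1 in 20 groups. Of 248 groups of values checked, 24 were singled out, and 12.4 would be from chance alone.

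WT replicate 1 stood apart in the summed Purkinje cell markers 12926 CPM (lowest; others 15463 to 17712), the summed brainstem and cerebellar nuclei markers 543 CPM (highest; others 199 to 336) and Atxn1l 64.1 CPM (lowest; others 71.2 to 77.5). It also stood apart for Itpr1 3773 CPM (lowest; others 4766 to 5544), Gad1 567 CPM (lowest; others 680 to 759) and Nxph1 29.7 CPM (highest; others 21.2 to 24.6). The same library had H2-K1 34.2 CPM (highest; others 23.1 to 28.2), Nefh 332 CPM (highest; others 157 to 236) and Slc17a6 81.9 CPM (highest; others 20.7 to 43.3). Cic-S-KO replicate 6 stood apart in the summed myelin and oligodendrocyte markers 14505 CPM (highest; others 9185 to 11365), the summed brainstem and cerebellar nuclei markers 587 CPM (highest; others 218 to 324) and the summed unipolar brush cell markers 624 CPM (lowest; others 729 to 805). That library also had Cic 183 CPM (lowest; others 209 to 227), Abca8a 24.3 CPM (highest; others 13.2 to 16.3) and Ncor1 310 CPM (lowest; others 348 to 366). Further values of it were Gabrd 84.7 CPM (lowest; others 111 to 126) and Nefh 347 CPM (highest; others 163 to 228). Gadd45b was highest in WT replicate 7, at 13.1 CPM against 9.63 to 11.1 in the others. Egr3 was highest in WT replicate 2, at 1.07 CPM against 0.424 to 0.685 in the others. mt-Co3 was lowest in WT replicate 3, at 20.4 CPM against 24.7 to 28.1 in the others. Gbp4 was lowest in Cic-S-KO replicate 3, at 1.19 CPM against 2.85 to 4.08 in the others. Egr3 was highest in Cic-S-KO replicate 4, at 3.21 CPM against 0.78 to 1.66 in the others. Sh3glb2 was highest in Cic-S-KO replicate 2, at 165 CPM against 151 to 155 in the others. Gpr153 was highest in Cic-S-KO replicate 7, at 48.8 CPM against 39.3 to 43.1 in the others.

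The Cic-S-KO effect differed between cerebellum and cortex at 37 of the named genes reported here (edgeR interaction, adjusted p from 3.23e-05 to 0.0464). In all, 112 genes were named, most for passing in the cerebellum contrast and 5 for their interaction p. Their count is therefore raised by that choice, and over all genes tested the share was 4.5%. The cerebellum minus cortex difference of log2 fold changes was positive for 22 genes: Egr3 (1.48), Dcn (0.91), Hapln2 (0.76), Npy (0.71), Grin2b (0.62), Gm35040 (0.54), Slc24a2 (0.52) and Pvalb (0.51). It was also positive for Grik3 (0.51), Itpr1 (0.49), Nxph1 (0.42), Rps7 (0.39), mt-Co3 (0.38), Gria1 (0.32), S100b (0.31) and Hlf (0.30). Smaller positive values were found for Gad1 (0.29), Rpl22 (0.29), Tubb2b (0.29), Abr (0.26), Spns2 (0.26) and Kcna6 (0.20). It was negative for 15 genes, with the most negative values for Lhx5 (-2.60), Pappa (-1.40), 6530403H02Rik (-1.22), Col27a1 (-0.81), Chn2 (-0.53), Tunar (-0.49), Gabrd (-0.48) and Cic (-0.48). Nearer to 0 were Kcnd2 (-0.46), Kcnj12 (-0.41), Fgf14 (-0.40), Rps6ka1 (-0.39), Snx30 (-0.35), Sh3glb2 (-0.27) and Eml1 (-0.24). Lhx5 was below the count filter of the cortex test.

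Between libraries without and with Y-linked RNA, the Cic-S-KO effect differed for Dcn by 0.59 (adjusted p = 0.0174, edgeR) and for Abcb1a by 0.67 (adjusted p = 0.0365, edgeR).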

How the results depend on the processing

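The count of 1370 genes was 1352 with RLE normalisation, 1850 with DESeq2, 1008 without the low-count filter, 1524 at a mean of at least 50 counts, 1397 without the robust fit, 1192 with 2 genotypes in the fit, 1460 with Y-linked RNA as a covariate, 1446 and 1454 after removing trends with GC content and exon length, 1373 without genes within 10 Mb of Cic and 1001 with library numbers as a block. Requiring a log2 fold change of at least 0.5 left 176. Leaving out 1 library gave 883 (without Cic-S-KO replicate 6) to 1851 (without WT replicate 1), with 907 without Cic-S-KO replicate 7. Chosen after seeing the data, libraries with Y-linked RNA gave 17, those without 2314, and leaving out the 2 libraries highest in brainstem markers 1110.

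With the replicate number of the titles as a block, 591 genes differed. Same-numbered libraries of the 2 genotypes had correlations of deviations from -0.386 to 0.183, and libraries sharing the number in their library name 0.020 to 0.264. Not every pair was over 0.1 in either, so neither number was taken to pair the libraries. The Cic-L-KO count was 1501 with that block and the interaction count 735, against 2069 and 812 without it.

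Of the 98 named genes that passed, 98 kept their call with DESeq2, 98 with RLE normalisation, 84 to 97 when 1 library was left out, 77 with the replicate block, 90 with the library number block, 25 at a log2 fold change of at least 0.5, 85 in libraries without Y-linked RNA and 9 in those with it. Most of these genes were named for a small p or a large change in the same counts. Their kept calls therefore do not measure how stable the 1370 genes are. In libraries with Y-linked RNA, Abcb1a was at -0.059 and Ogn at -0.052, opposite to the values over all libraries. Granule markers lower numbered 8 to 15 when 1 library was left out, Purkinje markers higher 3 to 12 and interneuron markers higher 6 to 10, against 12, 9 and 10, and the replicate block gave 2, 3 and 6. The cause of these shifts was not tested. Counts per gene limit what can be said of genes of low expression, and isoforms cannot be separated.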

Other observations

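Several further gene groups gave 1 or 2 calls each, beside 8.23% of all genes tested. Of 21 tested cholesterol synthesis genes 2 rose, Srebf2, the sterol-sensing transcription factor (log2 fold change 0.14), and Hmgcs1, an early enzyme of the pathway (0.31, adjusted p = 0.0443, edgeR). Of 16 immediate early genes 2 rose, Egr3 from 0.632 ± 0.192 to 1.36 ± 0.886 CPM, and Gadd45b from 10.8 ± 1.08 to 13.2 ± 1.75 CPM. In Egr3 the largest Cic-S-KO value, 3.21 CPM, came from replicate 4. Of 12 S phase and mitosis genes Mcm5, a replication licensing factor, fell by 0.30 (adjusted p = 0.0333, edgeR). Of 7 FMRP family and partner genes Fmr1, the fragile X gene, fell from 99.3 ± 4.35 to 89.3 ± 5.99 CPM (adjusted p = 0.0144, edgeR).

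Of 5 unipolar brush cell markers 0 passed (edgeR; 1 lower at an unadjusted p under 0.05, 0 by DESeq2). Col27a1, a fibrillar collagen of cartilage, fell by 0.42 here and rose by 0.39 in cortex, and the difference was -0.81 (adjusted p = 0.00203, edgeR). Col2a1, the main cartilage collagen, rose by 0.50 here (adjusted p = 0.0138, edgeR), and Col23a1, a membrane collagen, by 0.40 (adjusted p = 0.00296, edgeR).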
